A study of Oryza sativa with 8 samples.

Results

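The regions described here were 50-kb bins of the rice genome that lay in the A compartment although they held only 3 or 4 genes. Contacts between distant parts of the genome had been measured by Hi-C, a method that ligates and sequences crosslinked DNA ends, in the aerial parts of 3-week-old seedlings. The plants were of the japonica cultivar Nipponbare (Nip) and the indica cultivar 93-11. All seedlings had grown in culture solution under short days of 10 h light. The 4 groups were Nip normal, Nip HS, 93-11 normal and 93-11 HS, with 2 replicates each, where HS stands for heat stress at 45 °C for 36 h. The HS seedlings were also kept at a humidity above 80% and at a light of 60 to 80 µmol m-2 s-1 in place of 800, and the sources do not say that the normal seedlings were kept in the same way, so temperature, light and humidity cannot be told apart. Aerial parts hold many cell types, and every value is an average over them.

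Bins were chosen by 2 values, their number of genes and their PC1 score. PC1 is the first principal component of the contact correlation matrix. It was deposited for each bin and library, and a bin was called A where it was above 0 and B otherwise. A gene-poor A bin had 3 or 4 genes, a PC1 above 0 in both normal libraries of its cultivar and a score in all 4 libraries. In Nip, 404 bins met this rule of 7468 bins in all, and in 93-11, 449 of 7763. They were 404 of the 3440 A bins of Nip and 449 of the 3501 of 93-11. Each cultivar has its own coordinates, and the genome build was not stated, so bins were not matched between cultivars. Which genes they hold was not analysed here, and no sequence is shown.

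In plant nuclei, the A compartment gathers chromatin that is rich in genes and mostly open and transcribed, whereas the B compartment gathers the repeat-rich, mostly silent chromatin around the centromeres. A bin is scored by the company its DNA keeps in the nucleus, so a stretch with few genes can score as A when it contacts the same partners as gene-rich stretches do. Topologically associating domains (TADs) are a finer layer: stretches with more contacts inside than across their borders, which may lie nested inside larger ones. Gene-poor A bins set the number of genes apart from the compartment, since B bins with the same number of genes exist beside them.

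Being in A was the less common state for such bins. Of the bins with 3 genes on which the normal libraries agreed, 21.9% lay in A in Nip and 20.4% in 93-11. Of those with 4 genes, 30.6% and 34.7% did. The share in A was 8.55% and 7.41% at 2 genes, 48.0% and 47.9% at 5 genes, and 87.2% and 91.4% at 10 genes. The methods of the study assigned active regions from the annotation, with gene-rich regions at positive PC1. If the deposited scores were set in this way, the direction of this rise is fixed by that step, so it is given as a description. The scored bins of 3 or 4 genes that were not gene-poor A bins comprised 1110 B bins and 27 bins of differing call in Nip, and 1151 and 43 in 93-11. The B bins of 3 or 4 genes and the other A bins, 3036 in Nip and 3052 in 93-11, served for comparison.

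**Figure D1:**
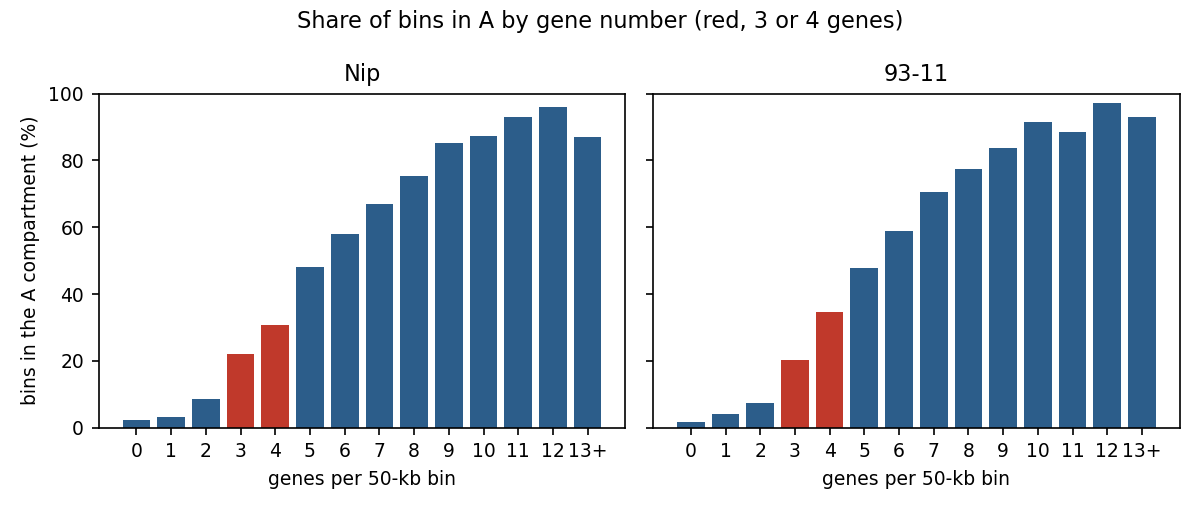
Share of 50-kb bins in the A compartment (percent of the bins called alike by both normal libraries) against the number of genes per bin, for Nip and 93-11. Red bars mark bins of 3 or 4 genes, which reach 21.9% and 30.6% in Nip and 20.4% and 34.7% in 93-11, and blue bars all other gene numbers.

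Most gene-poor A bins had no other gene-poor A bin directly beside them. They were 404 of 7040 scored bins in Nip and 449 of 7317 in 93-11. At so low a share, a random placement would also give mostly single bins. Whether they lay together more or less often than that was not tested. In Nip they formed 344 runs of adjacent members, with 293 single bins, 42 pairs and 9 runs of 3 bins. In 93-11 they formed 382 runs, with 326 single bins, 47 pairs, 8 runs of 3 bins and 1 run of 5. That longest run, chr10:1500001-1750000 of 93-11, had 18 genes in its 5 bins and a mean PC1 of 0.0212 and 0.0208 in the normal libraries, and of 0.0144 and 0.0236 in the HS libraries. The HS libraries lay on either side of the normal ones. In 93-11, chr10:20000001-20150000 with 11 genes had a mean PC1 of 0.049 and 0.0493 in normal and 0.052 and 0.051 in HS libraries. A run of the same cultivar at chr11:6600001-6750000 with 11 genes had 0.0457 and 0.0453 in normal and 0.0457 and 0.0467 in HS libraries. In Nip, chr9:16000001-16150000 with 11 genes had 0.0567 and 0.0573 in normal and 0.0603 and 0.0593 in HS libraries. Runs at chr10:18050001-18200000, with 11 genes, and chr8:24500001-24650000, with 10 genes, lay between 0.0487 and 0.052 in all 4 libraries of Nip. Apart from the 5-bin run, these stretches of 150 kb with few genes had a mean PC1 of 0.0453 or more in both conditions. They were picked among the runs of 3 bins for the highest mean normal PC1, so their high normal level follows from the choice.

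Their surroundings were richer in genes than they were. The 2 neighbouring bins held 6.15 genes on average in Nip and 6.13 in 93-11, against 6.90 and 6.96 for the other A bins and 4.15 and 3.91 for the B bins of 3 or 4 genes. The unbroken stretch of A bins around them had a median length of 1250 kb in Nip and 900 kb in 93-11, against 1550 and 1400 kb around the other A bins. A B bin lay directly beside 64 of the 404 in Nip (15.8%) and 84 of the 449 in 93-11 (18.7%), against 10.7% and 11.8% of the other A bins. B bins lay on both sides of 12 gene-poor A bins in Nip and 15 in 93-11. Most gene-poor A bins were therefore inside A stretches, not islands in B.

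Along the chromosome they lay between both comparison classes. The median distance to the nearer chromosome end was 6.41 Mb in Nip and 6.53 Mb in 93-11. It was 4.83 and 4.75 Mb for the other A bins and 10.9 and 10.7 Mb for the B bins of 3 or 4 genes. Within the outer 2 Mb of a chromosome lay 11.6% and 12% of the gene-poor A bins, against 20.9% and 21.4% of the other A bins and 3.78% and 4.08% of the B bins. These positions follow from choosing bins by compartment and gene number, and they are given as a description with no test.

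**Figure D2:**
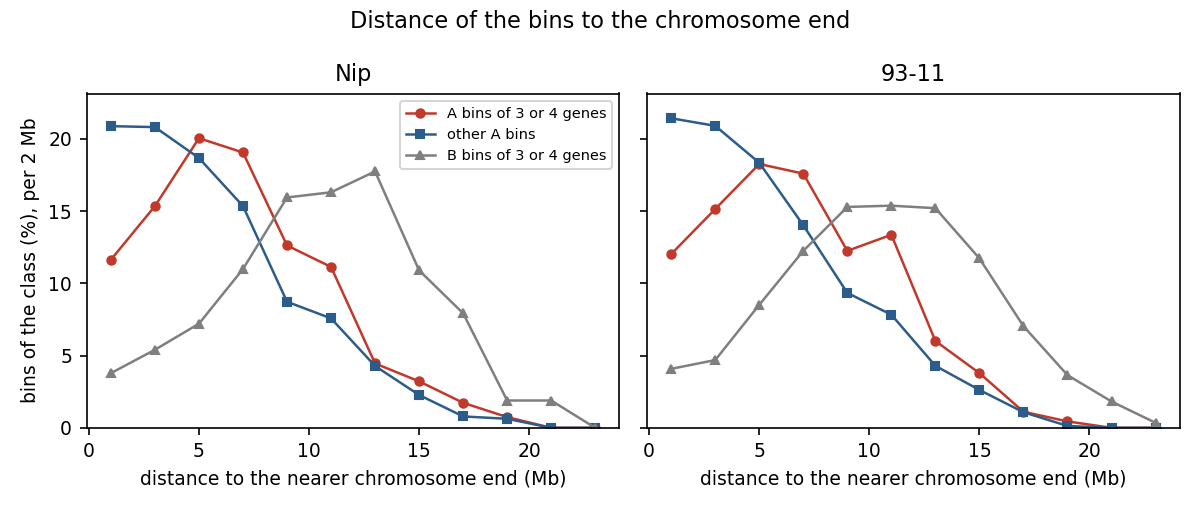
Share of the bins of each class (percent, per 2 Mb) against their distance to the nearer chromosome end (Mb), for Nip and 93-11. Gene-poor A bins (red circles) lay farther in than the other A bins (blue squares) and nearer the ends than the B bins of 3 or 4 genes (grey triangles), with 11.6% and 12% of them in the outer 2 Mb.

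The 12 chromosomes did not hold them evenly. In 93-11, chromosome 11 alone held 73, which were 25% of its A bins, and 40.6% of its bins of 3 or 4 genes called alike lay in A. In Nip, chromosome 11 held 47 (18.4% of its A bins) and chromosome 8 held 44 (18.2%). Chromosome 3 had the lowest share of A bins in both cultivars, 6.70% in Nip and 7.57% in 93-11. The share that left A, boundaries per bin and the length inside TADs are given without chromosome 11 below, beside the other A bins. Other results are given with it only.

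PC1 in the normal libraries chose the bins, so its level there is a description. The gene-poor A bins had a mean PC1 of 0.0362 and 0.0363 in the normal libraries of Nip and 0.0346 in both of 93-11, with a range over bins of 0.001 to 0.058. The other A bins had 0.0401 in both libraries of Nip, and 0.0397 and 0.0398 in 93-11. The 3 gene-poor A bins of highest deposited score lay on chromosomes 9 and 10 in Nip and on chromosome 9 in 93-11. The score has unit length on each chromosome, so a chromosome with fewer bins gives larger scores, and this order does not rank bins of different chromosomes by how firmly they lie in A. In Nip, chr9:16100001-16150000, with 4 genes, had 0.058 in both normal libraries and 0.063 and 0.06 in HS. The other bins of 4 genes, chr9:17100001-17150000 and chr10:18250001-18300000, had 0.058 in both normal libraries and 0.061 to 0.063 in HS libraries. In 93-11, chr9:19150001-19200000, with 3 genes, had 0.056 and 0.057 in normal libraries and 0.06 in both HS libraries. The bins at chr9:19300001-19350000 and chr9:21850001-21900000, with 4 genes each, had 0.056 in both normal libraries and 0.057 to 0.059 in HS. In all 6 bins the HS values lay above the normal ones.

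At the other side of the rule, the members just above the limit of 0 were few. In Nip 6 had a mean normal PC1 of 0.005 or less, and in 93-11 10 had. Their mean PC1 in the HS libraries was 0.0102 and 0.00800 in Nip and 0.0043 and 0.0049 in 93-11, and 1 and 2 of them were B in both HS libraries. The lowest member of Nip, chr11:28050001-28100000 with 3 genes, had 0.004 and 0.002 in normal and 0.001 and -0.005 in HS libraries. In 93-11 the lowest were chr5:20050001-20100000, with 0.003 and 0.001 in normal and 0.02 and 0.017 in HS, and chr6:23550001-23600000, with 0.003 and 0.001 and then 0.029 and 0.037. Each has 4 genes. The 27 and 43 bins just outside, called A in 1 normal library only, had mean normal scores of 0.000204 and -0.00112, and 11 and 14 of them were B in both HS libraries. At the gene limits, A bins of 2 genes had a mean normal PC1 of 0.0348 in Nip and 0.0304 in 93-11, bins of 3 genes 0.0349 and 0.0319, bins of 4 genes 0.037 and 0.036 and bins of 5 genes 0.038 and 0.0377.

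Replicates agreed less on these bins than on other A bins. The mean absolute difference between the normal replicates was 0.00268 in Nip and 0.00292 in 93-11, against 0.00167 and 0.00159 for the other A bins. Between the HS replicates it was 0.00536 and 0.00412, against 0.00379 and 0.00259. The median difference between normal replicates was 0.001 for both classes, the last digit of the deposited score. No test was made of this.

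In the HS libraries, which had no part in the choice, the gene-poor A bins had a mean PC1 of 0.0337 and 0.0335 in Nip and 0.0331 and 0.033 in 93-11. The other A bins had 0.039 and 0.0392 in Nip and 0.0392 in both libraries of 93-11. The difference in the HS libraries was -0.00549 in Nip and -0.00616 in 93-11, below 0 in 4 of 4 libraries, with an exact two-sided sign-flip permutation p of 0.13, the smallest that 4 libraries allow. With the other A bins weighted to the normal PC1 of the gene-poor ones (steps of 0.005), the mean difference was -0.00126 over the 4 libraries. The exact permutation p was again 0.13. The normal PC1 used for the weights also chose the bins, and replicates agreed less on the gene-poor ones. Nothing is therefore read from this p. The weighted other A bins stood at 0.035 and 0.0352 in the HS libraries of Nip and at 0.0341 and 0.034 in those of 93-11. With PC1 divided by its root mean square on each chromosome, the unweighted difference was -0.157 of that unit.

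**Figure D3:**
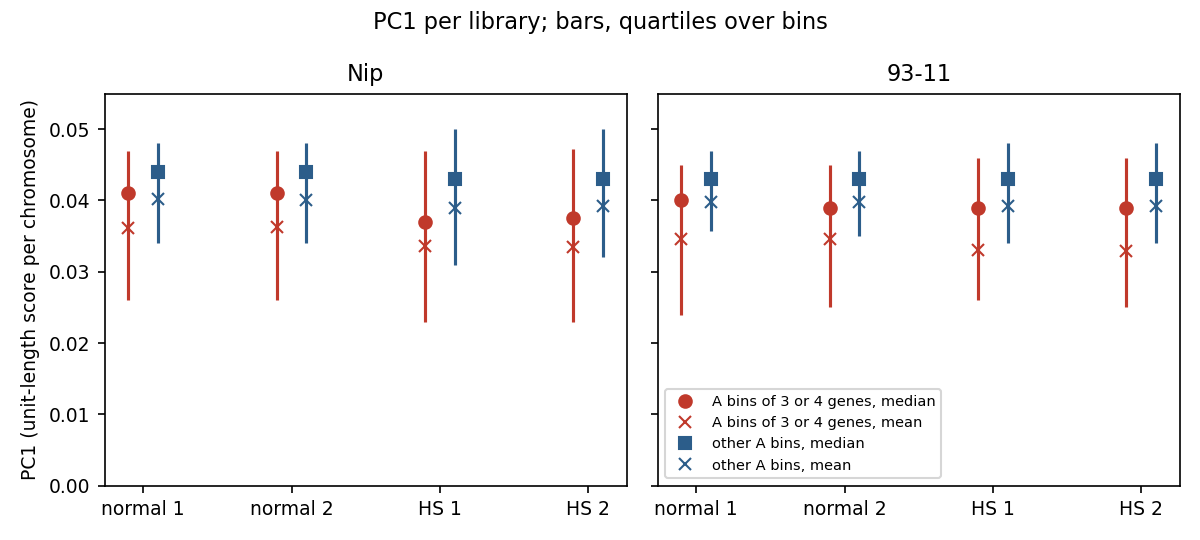
PC1 per library (y axis, a score of unit length per chromosome) for gene-poor A bins (red) and other A bins (blue) in Nip and 93-11. Filled symbols are medians over bins, crosses means and bars quartiles, and the red means lie below the blue ones in all 8 libraries, at 0.0330 to 0.0363.

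The change from normal to HS was small on average and wide over bins. The mean change in PC1 was -0.00263 in Nip and -0.00157 in 93-11, against -0.00103 and -0.000563 in the other A bins. The median change was -0.0005 in Nip and 0 in 93-11, with quartiles of -0.006 and 0.0035 in Nip and -0.004 and 0.003 in 93-11. PC1 was lower in HS in 205 bins and higher in 184 in Nip, and lower in 216 and higher in 211 in 93-11. These were 50.7% lower and 45.5% higher in Nip and 48.1% and 47.0% in 93-11, against 42.9% and 53.3%, and 39.9% and 52.6%, of the other A bins. Bins lower by more than 0.01 numbered 66 in Nip (16.3%) and 47 in 93-11 (10.5%), and 22 (5.45%) and 31 (6.90%) were higher by as much. Among the other A bins, 9.98% and 5.28% were lower and 2.70% and 2.65% higher by more than 0.01. The choice of bins above 0 in the normal libraries favours lower values elsewhere, and this holds for the other A bins too.

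Most gene-poor A bins kept their compartment. In Nip 371 of 404 (91.8%) and in 93-11 409 of 449 (91.1%) were A in both HS libraries, and 18 and 19 were called differently by the HS replicates. The bins that were B in both HS libraries numbered 15 in Nip, or 3.71% (exact 95% Clopper-Pearson interval 2.09% to 6.05%, which covers counting error over bins only). Over all 3440 A bins of Nip the share was 2.12%, and over the other A bins 1.91%. In 93-11, 21 bins were B in both HS libraries, or 4.68% (2.92% to 7.06%), beside 1.66% of all 3501 A bins and 1.21% of the other A bins. With the other A bins weighted to the same normal PC1, their share was 2.99% in Nip and 2.28% in 93-11. The shares depended on bins near the limit of the rule. With a normal PC1 of at least 0.25 SD in both libraries, 10 of 368 gene-poor A bins of Nip (2.72%) and 7 of 396 of 93-11 (1.77%) were B in both HS libraries, beside 1.04% and 0.588% of the other A bins chosen in the same way. Without chromosome 11, where 8 of the 21 bins of 93-11 lay, the share was 3.64% in Nip and 3.46% in 93-11, against 1.80% and 1.13% of the other A bins. No test was made on these shares, because the normal scores chose the bins, and nothing is read from them about HS. In the opposite class, 2.25% of the B bins of 3 or 4 genes in Nip and 3.13% in 93-11 were A in both HS libraries.

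Bins were also chosen as A in 1 normal library alone, and their shares in B were counted in each other library. These shares are per library and cannot be set against the shares in both HS libraries given above. In Nip, 416 bins of 3 or 4 genes were A in normal replicate 1, and 2.88% of them were B in normal replicate 2, against 6.49% and 7.69% in the HS libraries. Of the 419 chosen on normal replicate 2, 3.58% were B in normal replicate 1 and 7.16% and 8.11% in the HS libraries. In 93-11, 6.26% of the 479 bins chosen on normal replicate 1 were B in normal replicate 2, against 9.19% and 8.35% in HS. Of the 462 chosen on replicate 2, 2.81% were B in replicate 1, against 8.66% and 7.79% in HS. In all 4 cases both HS shares lay above that of the other normal replicate. HS replicates also differed more from each other than normal ones did, as given above, and these shares were not tested. Among other A bins both HS shares also lay above that of the other normal replicate, at lower levels. In Nip 1.59% and 1.91% were B in the other normal replicate, against 3.86% to 4.01% in the HS libraries, and in 93-11 1.68% and 1.48%, against 2.45% to 2.78%.

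The bins that left A had lower normal scores than those that stayed. Their mean normal PC1 was 0.0193 in Nip and 0.015 in 93-11, against 0.0378 and 0.0365 for those that stayed. At a normal PC1 below 0.01, 2 of 15 bins of Nip and 11 of 30 of 93-11 were B in both HS libraries. At 0.04 or more, 2 of 209 and 1 of 219 were, and none of the 1984 and 2014 other A bins of that range. Below 0.01 the other A bins gave 20.2% of 99 in Nip, above the 13.3% of the gene-poor bins, and 14.1% of 99 in 93-11, below their 36.7%, so the order of the classes differed between the cultivars there. Shares were also counted by place, for bins at an end of an A stretch (beside a B bin, an unscored bin, a bin of differing call or the chromosome end) and for bins inside it. In Nip 7 of 85 end bins (8.24%) and 8 of 319 inner bins (2.51%) were B in both HS libraries. In 93-11 it was 13 of 106 (12.3%) and 8 of 343 (2.33%). The other A bins gave 7.35% and 4.73% at ends and 0.612% and 0.440% inside. End bins also had lower normal scores, 0.0249 and 0.0236 on average against 0.0392 and 0.038 inside, so place and score cannot be told apart in these shares.

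**Figure D4:**
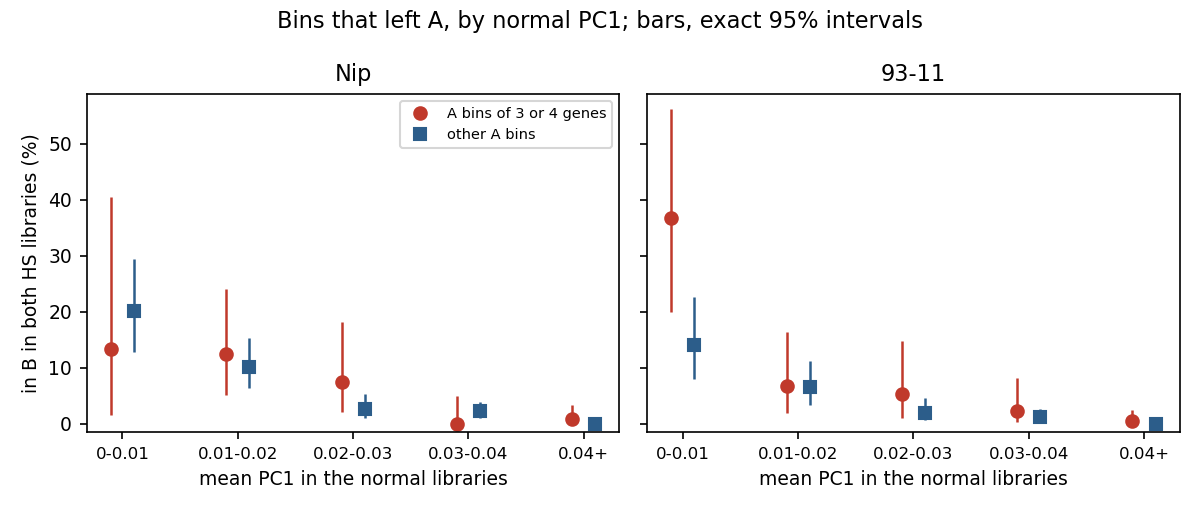
Share of A bins that were B in both HS libraries (percent, y axis) by mean PC1 in the normal libraries (x axis) in Nip and 93-11, for gene-poor A bins (red circles) and other A bins (blue squares), with exact 95% intervals over bins as bars. Under 0.01 the share was 13.3% of 15 gene-poor bins against 20.2% of 99 other A bins in Nip, and 36.7% of 30 against 14.1% of 99 in 93-11, and at 0.04 or more it was near 0.

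The 5 bins of largest change among those that left A are given by library. In Nip, 4 of them lay on chromosome 8. The bin chr8:18950001-19000000, with 3 genes, had a PC1 of 0.04 and 0.041 in normal and -0.003 and -0.017 in HS libraries. At chr8:22300001-22350000, with 3 genes, PC1 was 0.027 and 0.025 in normal and -0.011 and -0.032 in HS. The HS replicates were far apart in both bins. The bin chr8:22850001-22900000, with 4 genes, had 0.041 and 0.046 and then -0.001 and -0.002, and so ended just below 0. At chr8:22100001-22150000, with 4 genes, PC1 was 0.023 and 0.031 in normal and -0.012 and -0.021 in HS. The last 3 of these lie close together, between positions 22100001 and 22900000 of chromosome 8. The remaining bin, chr12:25350001-25400000 with 3 genes, had 0.013 in both normal libraries and -0.026 and -0.034 in HS.

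In 93-11, 4 of the 5 lay on chromosome 11. The neighbours chr11:3450001-3500000 and chr11:3500001-3550000 have 4 genes each. The first had 0.04 and 0.038 in normal and -0.025 and -0.031 in HS libraries, the largest change of any gene-poor A bin. The second had 0.028 and 0.027 and then -0.01 and -0.03. Both lay in the middle of a 600-kb stretch of A. The bin chr11:14700001-14750000, with 4 genes, had 0.023 and 0.017 in normal and -0.021 and -0.029 in HS libraries. At chr11:25450001-25500000, with 3 genes, the normal replicates were far apart, at 0.007 and 0.024, and the HS libraries were at -0.032 and -0.024. The bin chr10:13850001-13900000, with 4 genes, had 0.044 and 0.037 in normal and -0.009 and -0.017 in HS. Bins that left A were above 0 in both normal libraries and not above 0 in both HS libraries, so their conditions cannot overlap.

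Among the bins that stayed in A, the 3 largest gains in PC1 of each cultivar were all beside a B bin. Their mean normal PC1 ranged from 0.002 to 0.0265. Bins picked for the largest rise tend to start low, so these scores follow in part from the choice. In Nip, chr4:18500001-18550000, with 3 genes, had 0.002 and 0.007 in normal and 0.029 and 0.028 in HS libraries. The bin chr8:17600001-17650000, with 4 genes, had 0.017 and 0.015 and then 0.036 and 0.041. At chr8:9600001-9650000, with 4 genes, it was 0.022 and 0.006 and then 0.031 and 0.04. All 3 touched a B bin. In 93-11 the largest gain was that of chr6:23550001-23600000, the bin between 2 B bins given above as the lowest of the normal scores. Next were chr12:16700001-16750000, with 3 genes and 0.018 and 0.004 in normal against 0.039 and 0.035 in HS, and chr12:6500001-6550000, with 4 genes and 0.034 and 0.019 against 0.049 and 0.052.

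A fit per bin over all scored bins of a cultivar (limma, Benjamini-Hochberg adjusted p below 0.05) was also made. Since the normal scores chose the bins, its calls are a description here. In Nip, PC1 was called lower in HS in 20 of the 404 gene-poor A bins (4.95%), beside 2.63% of all 7040 bins, and higher in 10 (2.48%), beside 2.74%. In 93-11, it was called lower in 17 of 449 (3.79%), beside 1.71% of all 7317 bins, and higher in 14 (3.12%), beside 3.46%. Of the bins called lower, 9 of 20 in Nip and 9 of 17 in 93-11 were B in both HS libraries, and the size of their change had a median of -0.025 and -0.0315. All bins called higher were A in both HS libraries, which their normal PC1 above 0 made likely. The balance of directions depended on the scale. With the median PC1 of every chromosome subtracted, which moved the median change of all bins to -0.003 in Nip and -0.006 in 93-11, 54 gene-poor bins were called lower in Nip (13.4%), beside 13.2% of all bins, and 7 higher (1.73%), beside 3.1%. In 93-11, 180 were called lower (40.1%), beside 37.4%, and 19 higher (4.23%), beside 4.39%. The shares called lower were then near those of all bins. On the values as deposited, without allowance for rounding, 23 were called lower (5.69%, beside 6.72% of all bins) and 34 higher (8.42%, beside 7.22%) in Nip. In 93-11, 22 were called lower (4.90%, beside 8.57%) and 41 higher (9.13%, beside 8.5%).

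TADs were not used to choose the bins. The deposited lists held 8317 to 8767 TADs in the normal libraries and 11273 to 11911 in the HS libraries of both cultivars, nested up to level 7. Their positions are multiples of 5 kb. The files hold no contact counts, so the depth behind these lists is unknown here.

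Gene-poor A bins held more TAD boundaries in the HS libraries. In Nip there were 0.869 and 0.874 boundaries per bin in the normal libraries and 1.33 and 1.36 in HS, or 0.871 ± 0.0035 (SD, n = 2) against 1.35 ± 0.0158. In 93-11 there were 0.755 and 0.728 in normal and 1.16 and 1.15 in HS libraries, or 0.742 ± 0.0189 against 1.15 ± 0.0063. The groups did not overlap in either cultivar. The ratio was 1.54 in Nip and 1.55 in 93-11, with an exact two-sided permutation p of 0.33 within each cultivar and 0.056 over both, the smallest values that these numbers of libraries allow. Bins without any boundary made up 28.7% in both normal libraries of Nip and 11.1% in both HS libraries. In 93-11 the share was 36.1% and 36.7% in normal and 17.4% and 16.5% in HS libraries.

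The TADs around these bins were smaller in HS. The nested lists are not what the domain caller named in the methods of the study gives, so this direction holds for the deposited lists alone. The innermost TAD at a bin's midpoint had a median size of 60 and 65 kb in the normal and 40 kb in both HS libraries of Nip, and of 70 and 75 kb and then 45 kb in both HS libraries of 93-11. The outermost TAD had a median of 195 and 210 kb in the normal and 110 and 100 kb in the HS libraries of Nip. In 93-11 it was 250 and 220 kb and then 140 and 120 kb. Less of the bins' length lay inside any TAD, 98.7% in both normal libraries of Nip against 91.2% and 91.6% in HS, and 99.1% and 98.8% against 94.7% and 94.5% in 93-11. Normal and HS libraries did not overlap in any of these measures, and each gave the same permutation p of 0.33 within a cultivar and 0.056 over both.

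The change in boundaries per bin is given beside that of the other classes. Boundaries per bin were higher by 0.474 in Nip and 0.410 in 93-11 in the gene-poor A bins, by 0.455 and 0.444 in the other A bins, and by 0.486 and 0.456 in the B bins of 3 or 4 genes. Bins with more boundaries in both HS libraries than in either normal library numbered 85 of 404 in Nip (21.0%), beside 22.5% of all scored bins, and 94 of 449 in 93-11 (20.9%), beside 21.2%. Bins with fewer numbered 4 in Nip (0.990%), beside 1.49%, and 10 in 93-11 (2.23%), beside 1.79%. Both shares were near the background.

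The gene-poor A bins differed from the other A bins in the level of boundaries per bin. They held fewer boundaries than the other A bins in 8 of 8 libraries. Beside the B bins of the same gene number, they held more in all 4 libraries of Nip and fewer in all 4 libraries of 93-11. Those B bins also lay below the other A bins in every library, so a low level was not particular to the gene-poor A bins. The other A bins had 0.967 and 0.951 per bin in the normal and 1.41 and 1.42 in the HS libraries of Nip, and 0.875 and 0.869 and then 1.30 and 1.33 in 93-11. The difference ranged from -0.187 to -0.0612 boundaries per bin over the libraries, with a mean of -0.113 and an exact two-sided sign-flip permutation p of 0.0078, the smallest that 8 libraries allow. The 4 libraries of a cultivar share the same bins, so the test covers the spread between libraries and not that between bins. With the other A bins weighted to the chromosomes of the gene-poor ones, the mean difference was -0.0788, again below 0 in 8 of 8 libraries. It was smallest in the HS libraries of Nip, at -0.0187 and -0.0308, against a mean of -0.0684 there without weights. In those 2 libraries the gene-poor A bins were lower on 8 and 7 of 12 chromosomes. On the mean of 4 libraries, the difference was below 0 on 9 of 12 chromosomes in Nip and 11 of 12 in 93-11. For bins inside A stretches the unweighted difference was below 0 in 8 of 8 libraries. For bins at their ends it was below 0 in all 4 libraries of 93-11 and in normal replicate 1 and HS replicate 1 of Nip, and above 0 in the other 2 libraries of Nip.

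Boundaries per A bin varied with gene number beyond these classes. In the normal libraries, A bins of 2 genes held 0.813 in Nip and 0.750 in 93-11, those of 3 genes 0.858 and 0.743, those of 4 genes 0.879 and 0.741, and those of 8 genes 0.970 and 0.901. In HS the values were 1.31 and 1.21 at 2 genes, 1.39 and 1.14 at 3 genes, 1.32 and 1.16 at 4 genes and 1.45 and 1.34 at 8 genes. The gene-poor A bins lay farther from the chromosome ends and more often beside B than the other A bins, as given above, and the part of position in these differences was not tested.

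A larger share of the gene-poor A bins lay inside TADs. It exceeded that of the other A bins in 8 of 8 libraries, by 0.752 to 3.26 percentage points, with a mean of 1.87 and p = 0.0078 (exact sign-flip permutation test, 8 libraries). The other A bins had 97.7% and 97.9% in the normal and 88.6% and 89.1% in the HS libraries of Nip, and 98.0% and 97.7% and then 92.1% and 91.2% in 93-11. The gap was 0.886 ± 0.190 (SD, n = 2) percentage points under normal conditions and 2.55 ± 0.105 under HS for Nip, and 1.10 ± 0.0124 and 2.95 ± 0.438 for 93-11. In percentage points the gap was wider in both HS than in both normal libraries of each cultivar, by 1.66 and 1.85. The exact permutation p was 0.056 over both cultivars, the smallest possible. The length inside TADs was near its upper limit in the normal libraries, so a gap in points can open as it falls. Whether the gap widened relative to the length outside TADs was not tested. A smaller fall was not particular to the gene-poor A bins. The change in HS was -7.28 and -4.34 points in them (Nip, then 93-11). It was -7.44 and -5.88 in the B bins of 3 or 4 genes, and -8.94 and -6.19 in the other A bins. TADs were also more deeply nested over the gene-poor A bins. On average 2.32 and 2.28 TADs lay over a midpoint in the normal and 1.85 and 1.95 in the HS libraries of Nip, and 2.44 and 2.37 and then 2.15 and 2.14 in 93-11. This exceeded the other A bins in 8 of 8 libraries, by 0.133 on average, with p = 0.0078 by the same exact permutation test. Against the B bins of 3 or 4 genes, nesting was less deep, by -0.193 on average, in 6 of 8 libraries, with an exact permutation p of 0.0313. That gap was -0.416 and -0.223 in the normal and -0.168 and 0.036 in the HS libraries of Nip and 93-11, with an exact permutation p of 0.056 for its change over both, the smallest possible. Compared with the other A bins, the innermost TAD was larger by 3.75 kb on average, with no difference in 3 of 8 libraries and an exact permutation p of 0.0625.

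**Figure D5:**
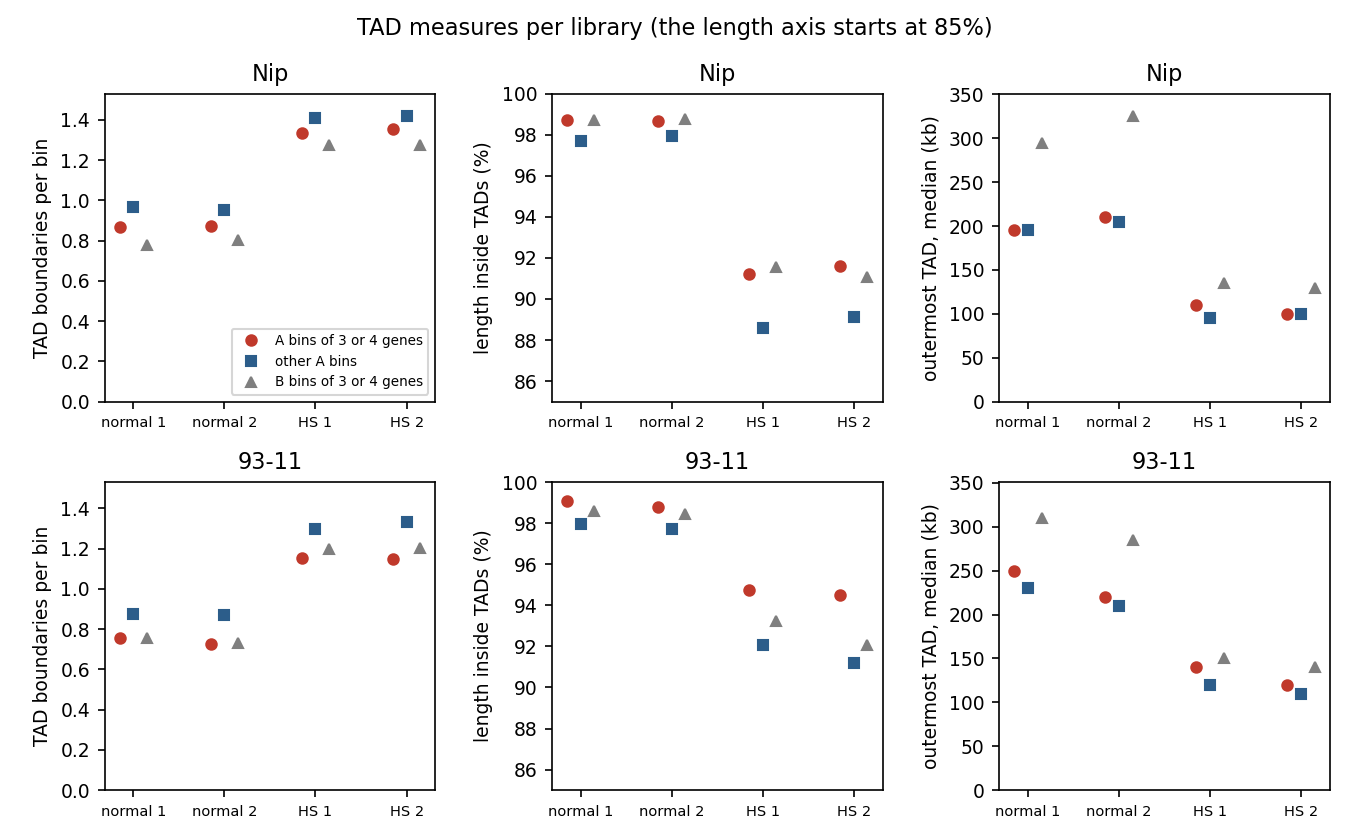
TAD boundaries per 50-kb bin (left), percent of bin length inside TADs (middle, axis from 85%) and median size of the outermost TAD at bin midpoints in kb (right), per library of Nip (top) and 93-11 (bottom). Gene-poor A bins (red circles) have fewer boundaries and more length inside TADs than other A bins (blue squares) in all 8 libraries, and smaller outermost TADs than B bins of 3 or 4 genes (grey triangles).

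Against the B bins of the same gene number, the outermost TAD differed in all libraries. Its median was 295 and 325 kb over the B bins in the normal and 135 and 130 kb in the HS libraries of Nip, and 310 and 285 kb and then 150 and 140 kb in 93-11. The gene-poor A bins were smaller in 8 of 8 libraries, by 10 to 115 kb, with a mean difference of -53.1 kb and p = 0.0078 (exact sign-flip permutation test). This gap was -108 and -62.5 kb in the normal and -27.5 and -15 kb in the HS libraries of Nip and 93-11, narrower in HS in both, with an exact permutation p of 0.056 over both cultivars. The innermost TAD was smaller by 7.5 kb on average, lower in 6 of 8 libraries and equal in 2, with an exact permutation p of 0.0313, which was 0.0625 when any 1 of 6 libraries was left out: the 4 normal libraries, HS replicate 1 of Nip or HS replicate 2 of 93-11. Boundaries per bin did not give 1 direction, with a mean difference of 0.0252 and an exact permutation p of 0.27 over 8 libraries. The length inside TADs was higher by 0.602 percentage points on average, in 5 of 8 libraries, with an exact permutation p of 0.078.

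Single boundaries were followed within 5 kb. The HS lists were denser, so a normal boundary meets one of HS within 5 kb more easily than the reverse. Gained shares above lost ones can follow from this, as can differences between classes with unlike numbers of boundaries, and this was not tested. Of 256 boundaries found in both normal libraries within the gene-poor A bins of Nip, 26 (10.2%) were absent from the HS lists. Of 345 that both HS libraries shared, 95 (27.5%) were absent from the normal lists. For 93-11 the lost boundaries were 42 of 212 (19.8%) and the gained ones 114 of 282 (40.4%). The other A bins lost 10.9% and 16.1% and gained 29.7% and 37.9%, and the B bins of 3 or 4 genes lost 15.8% and 22.4% and gained 40.2% and 45.1%. Gained boundaries lay in 87 gene-poor A bins of Nip (21.5%) and 100 of 93-11 (22.3%). The shares were 24.2% and 23.9% of the other A bins, and 25.5% and 24.7% of the B bins of 3 or 4 genes. Of the gene-poor A bins, 8 in Nip and 14 in 93-11 gained 2. Among the latter, those of highest normal PC1 were chr3:5950001-6000000, with 3 genes, and chr7:22700001-22750000, with 4 genes, in Nip. The first had no boundary in either normal library and 2 in each HS library, and its PC1 was 0.046 and 0.046 in normal and 0.045 and 0.046 in HS libraries. The second had 1 boundary in each normal and 2 in each HS library, at a PC1 of 0.046 and 0.045 and then 0.05 in both. In 93-11 they were chr12:25500001-25550000 and chr12:22200001-22250000, with 4 genes each. Both had no boundary in the normal libraries, and they had 2 and 2, and 2 and 3, in the HS libraries. Their PC1 was 0.053 and then 0.055, and 0.051 and then 0.049 and 0.05. In these 4 bins the compartment score moved by no more than 0.005. They were picked for gained boundaries, so that their boundaries differed follows from the choice. Ties were settled by high normal PC1. Gene-poor A bins of 0.04 or more changed little on average, by -0.00141 in Nip and -0.000975 in 93-11. Nothing is therefore read from these bins about boundaries and compartment.

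Boundaries were also counted by outcome. The 15 bins of Nip that left A held 0.667 and 0.8 per bin in normal and 1.27 in both HS libraries, and those 21 of 93-11 held 0.619 and 0.571 and then 1.24 and 1.14. Those that stayed in A held 0.881 and 0.876 and then 1.35 and 1.37 in Nip, and 0.770 and 0.741 and then 1.16 and 1.15 in 93-11. The bins that left A held fewer in all 4 normal libraries and in 3 of 4 HS libraries. With 15 and 21 bins, chosen by their HS score, no test was made.

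TAD lists of the HS replicates differed on some chromosomes. The number of TADs on a chromosome differed between HS replicates by a median ratio of 1.11 in both cultivars. On chromosome 11 of Nip it was 517 in HS replicate 1 and 931 in HS replicate 2, and on chromosome 10 of 93-11 381 and 673. The 47 gene-poor A bins of chromosome 11 in Nip held 0.809 and 0.851 boundaries per bin in normal and 1.06 and 1.45 in HS libraries. On 11 of 12 chromosomes in each cultivar, both HS libraries had more boundaries per gene-poor A bin than both normal libraries. The exceptions were chromosome 6 of Nip and chromosome 10 of 93-11. Without chromosome 11, the mean difference to the other A bins was -0.107 boundaries per bin and 1.88 percentage points of length, both with an exact permutation p of 0.0078 over 8 libraries.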

How the data were processed

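Hi-C libraries had been made with the enzyme DpnII from seedlings, 2 per group and 8 in all. The submitters' processing notes name cutadapt 1.0, BWA and HiC-Pro 2.8.1, and the methods of the study name Bowtie2 inside HiC-Pro, HiCExplorer and HOMER. The genome build, the annotation behind the gene numbers and the tools behind the 50-kb scores and the nested TAD lists are not given in the sources used here. Replicates were not pooled. PC1 was deposited by the authors as a score per bin, rounded to 3 decimals. It has unit length on each chromosome, so levels are relative to a chromosome. The deposited files give, as other values, the number of genes per bin and the start, end and level of each TAD. Depth was not used here, and neighbouring bins are not independent, so intervals cover counting error only.

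The bins and comparisons were chosen with earlier results of these data known. Scores were compared per bin with limma 3.58.1 in R 4.3.3, with the variance of rounding (0.001 squared over 12) added to the residual variances and Benjamini-Hochberg adjustment over all scored bins of a cultivar at a threshold of 0.05. TAD measures were averaged over bins per library (medians for sizes) and compared with exact two-sided permutation tests over libraries in Python 3.11.15. The study calls the replicates biological, and p-values measure the spread between libraries. A boundary was a TAD start or end at any level, counted once per position. The fit per bin was tested on simulated data, and the TAD and permutation steps on small lists with known answers. Named bins were chosen per cultivar. They were the 3 longest runs of members (ties by normal PC1), the 3 of highest normal PC1 and those of lowest normal PC1. The 5 of largest fall among those in B in HS and the 3 of largest rise among those kept in A were added. So were the 2 with most boundaries gained (ties by normal PC1). Alternatives were other limits for A, 3 or 4 genes alone, chromosome-centred, rescaled or quantile-normalized scores, no rounding variance, medians or means, outermost TADs alone, a replicate block and each replicate left out. Replicates of the same number did not deviate together, with a correlation of 0.0182 in Nip and 0.0136 in 93-11 over bins, so no pairing was used.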

Additional observations from a re-analysis of the deposited data

Results flagged for a closer look

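The 2 cultivars went in opposite directions in 2 measures of TAD boundaries. The gene-poor A bins held more boundaries than the B bins of 3 or 4 genes in all 4 libraries of Nip, by 0.0759 per bin on average, and fewer in all 4 libraries of 93-11, by an average difference of -0.0254. The comparison was singled out for this sign, and the difference between the cultivars was not tested. Cultivar, genome sequence and annotation cannot be told apart in this comparison. The difference between gene-poor and other A bins moved by 0.0193 boundaries per bin from normal to HS in Nip, where both HS libraries lay above both normal libraries, and by -0.034 in 93-11, where both lay below. This difference between the cultivars was not tested either.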

How the results depend on the processing

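Alternatives were run for boundaries per bin, innermost TAD size, length inside TADs and the PC1 level in HS, and all of these differences kept their direction. Nesting, the size of the outermost TAD against B bins and the changes in HS of the gaps between classes were computed with 1 setting only. The counts of gene-poor A bins were 151 and 152 with 3 genes only and 253 and 297 with 4 genes only (Nip, then 93-11). The share that was B in both HS libraries was 1.77% in 93-11 with a normal PC1 of at least 0.25 SD (other A bins 1.04% in Nip and 0.588% in 93-11, chosen after seeing the data) and 7.08% with chromosome-centred scores. With 1 replicate left out it was 4.81% to 6.44% in Nip and 5.84% to 6.90% in 93-11, where leaving out an HS replicate leaves 1 HS library to meet. Weighting the other A bins to the same normal PC1 (2.99% and 2.28%) and leaving out chromosome 11 were chosen after seeing the data.

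The limma counts of gene-poor bins moved most. Centred scores called 13.2% of all bins lower in Nip and 37.4% in 93-11, near the 13.4% and 40.1% of the gene-poor bins. In Nip, bins higher in HS numbered 34 without rounding variance, 5 after quantile normalization, 21 with the replicate block and 4 to 27 with 1 replicate left out. Bins lower in HS numbered 54 with centred scores, 12 after quantile normalization, 65 with the block and 37 to 81 with 1 replicate left out. In 93-11, those higher numbered 41 without rounding variance, 34 with the block and 22 to 40 with 1 left out, and those lower 180 with centred scores, 51 with the block and 38 to 54 with 1 left out. Fits with the block or without a replicate have 1 residual degree of freedom, and all bins then shared 1 spread. For boundaries, the block left the differences at 0.474 and 0.410 with an exact permutation p of 0.5, the smallest possible.

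Against other A bins, the difference in TAD size at midpoints was 10 kb with outermost TADs only (exact permutation p = 0.0313) and 3.30 kb with means over bins (p = 0.0234). Against B bins of 3 or 4 genes, leaving out 1 replicate gave -8.57 to -6.43 kb for the innermost size and 0.341 to 0.749 points for the length inside TADs, whose p was 0.0469 without normal replicate 2 of Nip. The files hold no depth, and 2 replicates per group limit every test over 1 cultivar.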
